A study of Mus musculus with 8 samples.

Results

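Imprinted genes are transcribed mainly from the copy inherited from the father or mainly from the copy inherited from the mother. Levels of 32 such genes were followed in mouse E14TG2a embryonic stem cells, out of 17728 genes with a usable row in the deposited tables. They came from a list of 40 names chosen for this purpose, with earlier results of these data known, and matched to the Ensembl identifiers of the tables by gene symbol. For 8 listed genes (Meg3, Rian, Mirg, H19, Snrpn, Kcnq1ot1, Airn and Commd1) no row was matched, and they were not analysed here. E14TG2a is a line of strain 129/Ola, grown here at passages 3 to 6 on gelatin without feeder cells, in serum with leukaemia inhibitory factor and inhibitors of the kinases GSK3 and MEK. Total RNA was sequenced from unedited cells (WT) and from 3 kinds of cells that had each lost an enhancer through CRISPR/Cas9 editing (E1-KO, E2-KO and E3-KO), with 2 samples in each of the 4 groups. The stated question of the series is what differing promoter and enhancer contacts do to the roles of Sox2, a transcription factor of pluripotent cells. The labels give neither the positions of the deletions nor the number of clones behind a group, and edited controls that keep the enhancers were not analysed here, so the loss of the enhancer cannot be told apart from clone, culture or library. The labels call the samples biological duplicates without naming separate cultures, so p-values measure only the spread between these samples.

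Imprinting rests on DNA methylation that is laid down differently in egg and sperm and then copied through cell division. Most imprinted genes lie in clusters, each governed by a control region that is methylated on the maternal or on the paternal copy. The zinc finger protein ZFP57 binds the hexamer TGCCGC when it is methylated and, with TRIM28, keeps the methylation of many control regions in early embryos and in embryonic stem cells. Stem cell lines and subclones are known for losing or gaining imprints in culture. Deposited values of this kind add both parental copies together, so they carry no information on which copy was read.

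Promoter sequences from RefSeq (GRCm38.p6) are shown for 4 of the genes that differed from WT, because their starts hold this hexamer. Each run is the stretch of 250 bases before a transcription start, 5′ to 3′ on the strand of the gene, and capitals mark the hexamer TGCCGC or its reverse complement GCGGCA. For Mest the window is chr6:30737800-30738049 on the plus strand, for Copg2 chr6:30896795-30897044 on the minus strand, for Mcts2 chr2:152686898-152687147 on the plus strand and for Plagl1 chr10:13090582-13090831 on the plus strand.
Mest: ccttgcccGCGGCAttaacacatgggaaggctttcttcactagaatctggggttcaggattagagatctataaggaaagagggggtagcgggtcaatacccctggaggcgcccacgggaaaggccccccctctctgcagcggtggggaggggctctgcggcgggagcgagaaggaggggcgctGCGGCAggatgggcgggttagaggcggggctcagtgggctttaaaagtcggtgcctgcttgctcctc
Copg2: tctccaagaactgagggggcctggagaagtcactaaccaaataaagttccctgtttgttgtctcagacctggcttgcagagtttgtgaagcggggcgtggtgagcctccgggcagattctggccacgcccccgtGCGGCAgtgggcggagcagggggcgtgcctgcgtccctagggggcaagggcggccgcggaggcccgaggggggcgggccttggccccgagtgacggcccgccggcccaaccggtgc
Mcts2: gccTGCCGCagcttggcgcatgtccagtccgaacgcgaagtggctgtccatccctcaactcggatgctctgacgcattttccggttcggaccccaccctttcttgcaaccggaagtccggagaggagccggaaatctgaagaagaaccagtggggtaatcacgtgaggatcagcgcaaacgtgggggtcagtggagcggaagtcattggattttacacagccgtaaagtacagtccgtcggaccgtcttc
Plagl1: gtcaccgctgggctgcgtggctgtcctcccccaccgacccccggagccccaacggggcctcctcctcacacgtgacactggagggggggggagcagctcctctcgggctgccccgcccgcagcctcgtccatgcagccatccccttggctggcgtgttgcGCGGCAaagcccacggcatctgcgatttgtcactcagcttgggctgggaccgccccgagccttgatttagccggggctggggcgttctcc
The hexamer began at -242 and -67 in Mest, -116 in Copg2, -247 in Mcts2 and -90 in Plagl1, counted in bases from the transcription start. Searched on both strands, it lay in 7 of the 39 windows of the 27 analysed genes with a window in the table (17.9%), against 8.68% of all 32851 windows of that length. Of these 7, 2 are windows of Mest that overlap in all but 3 bases and hold the same hexamers. Zdbf2 and Zim1 also had it. The windows of the analysed genes held a median of 14 CpG dinucleotides, and the median over all windows was 6, with 29.4% of all windows at 14 or more. The hexamer itself holds a CpG, and its share was not compared among windows of like CpG content. A match of letters is a description of these windows and does not show binding or methylation. No window was found for Peg10, Sgce, Trappc9, Impact and Cdkn1c.

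In WT cells the imprinted genes spanned a wide range of levels. Values are FPKM, fragments scaled by transcript length and library size, and are listed below as replicate 1 and replicate 2. The highest was Slc38a4, an amino acid transporter gene, at 131.3 ± 3.9 FPKM (SD, n = 2). It was followed by Plagl1 (61.7 ± 0.0583), Impact (48.3 ± 2.28), Copg2 (45.7 ± 1.48) and Peg10 (40.9 ± 0.804 FPKM, SD, n = 2 each). The WT values of Impact and Copg2 overlapped in range, and those of Tssc4 and Ube3a did as well (22.3 ± 0.448 and 22.1 ± 0.154 FPKM, SD, n = 2 each). At the other end, 8 of the 32 genes had a WT mean under 1 FPKM, the lowest of them Magel2 at 0.0149 ± 0.000384 (SD, n = 2).

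**Figure D1:**
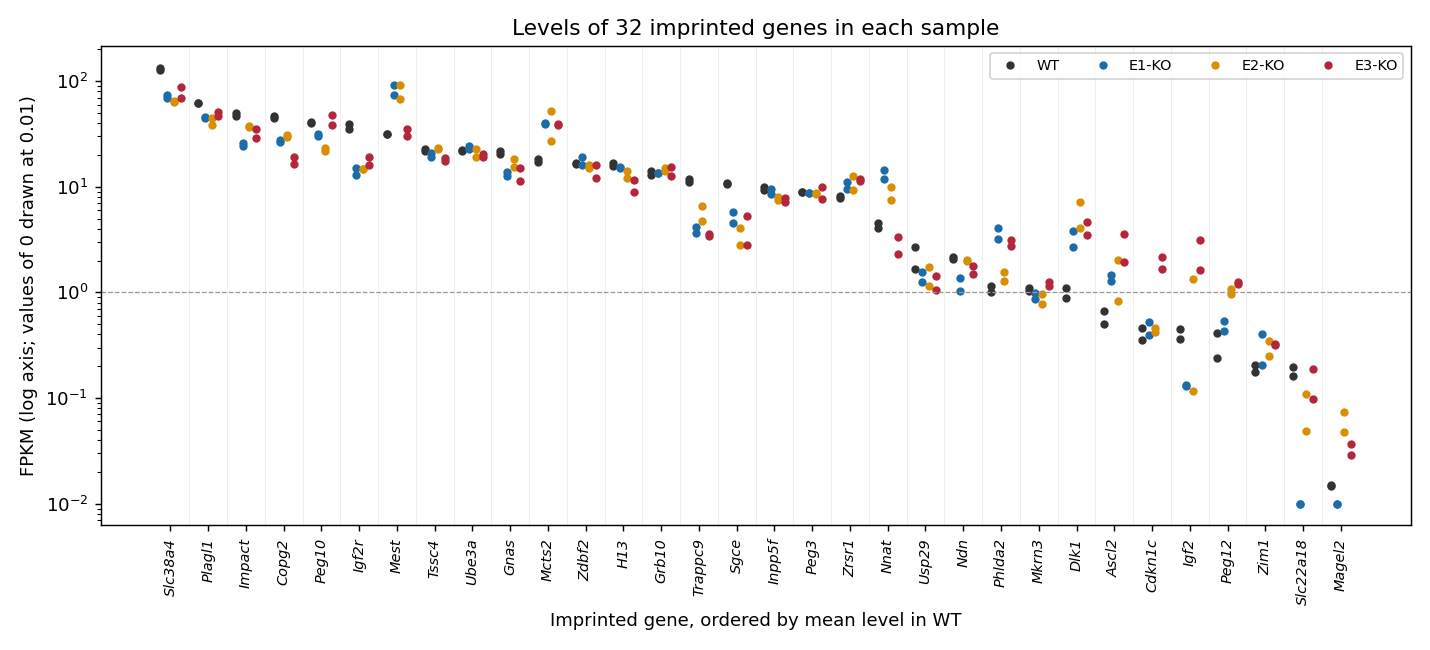
FPKM of each of the 32 analysed imprinted genes (log axis) in each of the 8 samples, coloured by group, with genes ordered by their WT mean and a dashed line at 1 FPKM. WT points lie above all knockout points for genes such as Igf2r and Trappc9, and below them for Mcts2 and Dlk1.

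The stem cell markers Pou5f1, Sox2, Nanog, Zfp42, Esrrb and Tdgf1 were all high, with sums of 1730 to 1760 FPKM in WT and 1500 to 2050 FPKM in the knockouts. Within these sums the markers moved in different directions. Sox2 stood at 130.5 and 136.3 FPKM in WT and was lower in every knockout sample. E1-KO had 58.03 and 60.27 FPKM of Sox2, E2-KO 113.6 and 97.51 and E3-KO 97.74 and 90.96. Esrrb was also below both WT samples throughout, whereas Pou5f1 and Zfp42 were above them in each knockout. Nanog and Tdgf1 were higher than WT in some knockouts and lower in others. Lists of other cell types stayed low, though some moved. Fibroblast markers summed to 1.14 to 1.57 FPKM in WT and 2.4 to 3.81 in the knockouts, with 6 of the 7 under 1 FPKM in every sample. The remaining marker, Thy1, had means of 0.768 FPKM in WT and 2.61, 1.53 and 2.69 in E1-KO, E2-KO and E3-KO. Those of primitive endoderm summed to 1.59 to 1.65 FPKM in WT, 0.736 to 1.3 in E1-KO and E2-KO and 2.48 to 4.78 in E3-KO, with 5 of 6 under 1 FPKM in every sample. The remaining marker, Gata6, had 1.04 and 1.15 FPKM in WT, 0.344 to 0.597 in E1-KO and E2-KO and 3.72 and 1.76 in E3-KO. Sox17 and Afp were also above both WT samples in E3-KO, whereas Sox7, Pdgfra and Foxa2 overlapped WT there. The 3 neural markers matched summed to 6.99 to 7.57 FPKM in WT, and their sum was higher in every knockout, at 11.5 to 13.3 in E1-KO, 9.58 to 9.98 in E2-KO, with 16.3 to 17.7 in E3-KO. Of these, Neurod1 overlapped WT in E2-KO. Trophoblast markers summed to 5.5 to 5.65 FPKM in WT, 5.8 to 7.36 in E1-KO, 3.52 to 4.09 in E2-KO, with 5.27 to 6.06 in E3-KO. Hand1 and Gcm1, under 1 FPKM in every sample, were above both WT samples in E3-KO, and Cdx2, Elf5, Krt7 and Eomes overlapped WT there. Mesoderm markers summed to 2.42 to 3.04 FPKM in WT and 1.53 to 2.5 in the knockouts. In such bulk samples a change in the number of cells that use a gene and a change in RNA per cell cannot be told apart. Relative depth, read from the steps between low values, was 0.786 to 1.01 of that of WT replicate 1, and absolute depth was unknown.

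Of the 32 genes, 26 averaged 1 FPKM or more across the 8 samples and were tested. Dlk1 and Ascl2 reached this mean through the knockout samples, so their higher levels there also let them enter, and the counts below describe the genes tested and do not stand for all imprinted genes. Fold changes were taken after adding 1 to each FPKM and taking log2, so those of low genes are understated, and a call is a Benjamini-Hochberg adjusted p under 0.05 over all 11269 tested genes from limma with a trend. Between E1-KO and WT 15 of the 26 were called (5 higher, 10 lower), where 38.0% of all tested genes were called (15.0% higher and 23.0% lower). Without E1-KO replicate 1 or without WT replicate 2 the count was 9. Between E2-KO and WT 12 were called (4 higher, 8 lower), against a background of 36.1% (14.2% higher and 22.0% lower). Between E3-KO and WT 15 were called (5 higher, 10 lower), against 44.7% (13.9% higher and 30.8% lower). Over the 24 genes left without Dlk1 and Ascl2, the higher and lower calls were 4 and 10 with E1-KO, 3 and 8 with E2-KO, then 3 and 10 with E3-KO. These 3 comparisons share the WT samples. Median changes of the 26 genes were -0.09, -0.12 and -0.27, and over all tested genes they were -0.062, -0.076 and -0.151. In the test over the 4 groups 16 of the 26 were called, or 61.5%, with 54.5% of all tested genes called. These 16 include Dlk1 and Ascl2, which entered through their knockout samples, so the share of 61.5% is raised by them. Quantile normalization moved the median of all tested genes in E3-KO to -0.008, so changes in E3-KO near -0.15 lie within what the scaling moves.

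**Figure D2:**
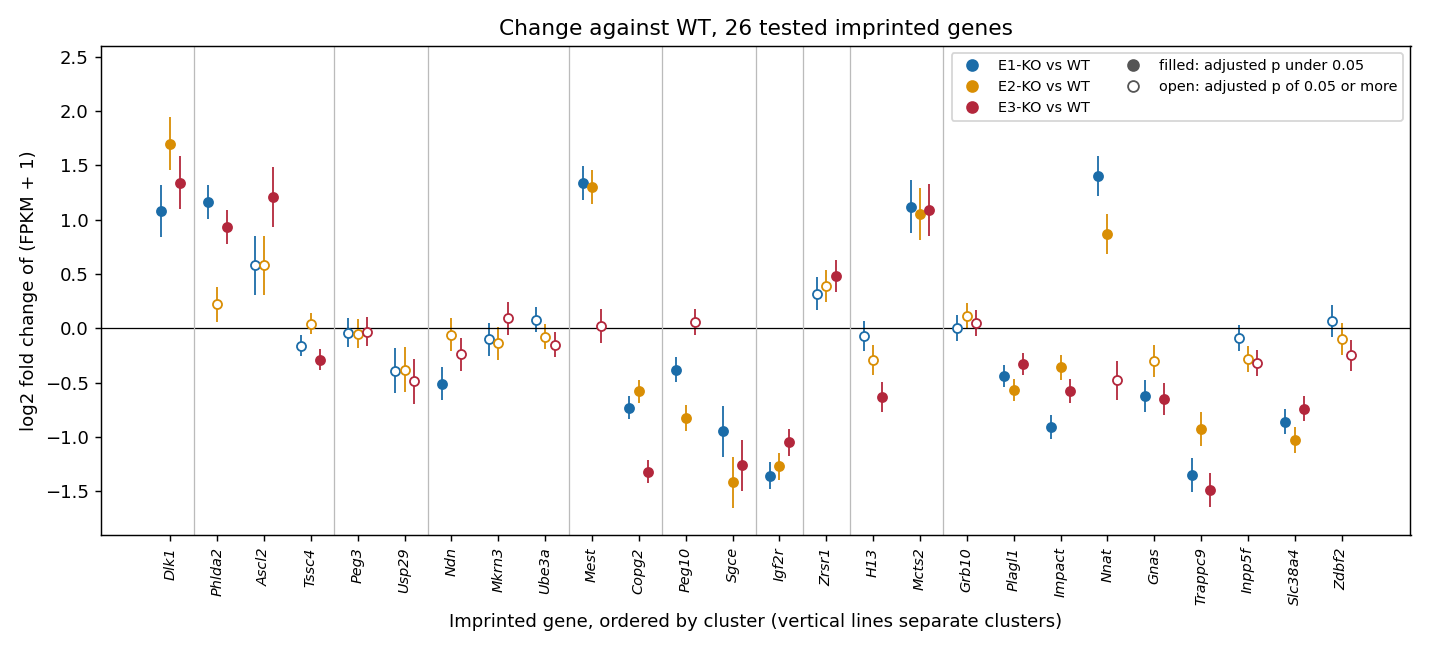
Log2 fold change of (FPKM + 1) against WT with its standard error for the 26 tested imprinted genes, in order of cluster, where a filled point has a limma adjusted p under 0.05. Igf2r, Slc38a4 and Trappc9 are filled below 0 in each knockout, while Mest, Peg10 and Nnat differ between E3-KO and the other knockouts. Dlk1 and Ascl2 entered the plot through their knockout samples.

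Mest (ENSMUSG00000051855) and Copg2 (ENSMUSG00000025607) form a cluster on chromosome 6 and went in opposite directions in E1-KO and E2-KO. Mest codes for a membrane protein of the alpha/beta hydrolase fold that acts in growth and is read from the paternal copy, and Copg2 for a subunit of the COPI vesicle coat that is read mainly from the maternal copy in some tissues. Mest stood at 31.8 and 31.9 FPKM in WT. It reached 91.4 and 74.0 FPKM in E1-KO and 92.5 and 68.5 FPKM in E2-KO, all above both WT samples. E3-KO stayed at 30.0 and 35.0 FPKM, overlapping WT. The changes of Mest were 1.34 in E1-KO (standard error 0.158, limma adjusted p = 0.000479) and 1.30 in E2-KO (limma adjusted p = 0.000616). The E3-KO value was 0.02 (limma adjusted p = 0.912). Copg2 had 44.6 and 46.7 FPKM in WT, 27.9 and 26.5 in E1-KO, 30.6 and 29.9 in E2-KO, with 19.03 and 16.3 in E3-KO. No knockout sample of Copg2 reached the WT range, and E3-KO was the lowest. Its changes were -0.73, -0.58 and -1.32 in the order E1-KO, E2-KO, E3-KO (limma adjusted p = 0.00112, 0.00349 and 7.7e-05, standard error 0.104 each). The 2 genes overlap on opposite strands in the annotation and the strand setting of the quantification is not given, so reads in the shared stretch may be split between them.

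Peg10 (ENSMUSG00000092035) and Sgce (ENSMUSG00000004631) are a divergent pair elsewhere on chromosome 6. Peg10 is a gene derived from a retrotransposon that the placenta needs, Sgce codes for epsilon-sarcoglycan, and both are read from the paternal copy. Peg10 had 40.3 and 41.5 FPKM in WT, 30.6 and 31.96 in E1-KO, 23.4 and 21.8 in E2-KO, with 48.0 and 38.1 in E3-KO, where the values lay on both sides of WT. Its changes were -0.38 in E1-KO (limma adjusted p = 0.0343), -0.83 in E2-KO (limma adjusted p = 0.00122) and 0.06 in E3-KO (limma adjusted p = 0.691). Sgce fell in each knockout, from 10.6 and 10.9 FPKM in WT to 4.52 and 5.73 in E1-KO, 2.81 and 4.1 in E2-KO, with 5.24 and 2.84 in E3-KO. Every knockout sample was at most 5.73 FPKM and so below both WT samples. Its changes were -0.95 (limma adjusted p = 0.0131), -1.42 (limma adjusted p = 0.00245) and -1.26 (limma adjusted p = 0.0028). The E1-KO call of Peg10 did not pass without any 1 of the E1-KO or WT samples (limma adjusted p between 0.103 and 0.161), nor with median-ratio scaling (0.0514), without the trend (0.0508) or without the filter (0.055). That of Sgce in E1-KO did not pass without E1-KO replicate 1 (limma adjusted p = 0.0915) or without WT replicate 1 or 2 (0.0586 and 0.0734).

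Chromosome 6 as a whole was lower in E3-KO, which touches all 4 of these genes. Over its other 532 tested genes the median change was -0.62 in E3-KO, against -0.13 over the genes of other chromosomes, and 70.1% were called. The same medians were -0.04 and -0.06 in E1-KO, and -0.07 and -0.08 in E2-KO. Set against that median in E3-KO, Mest had a change of 0.64 (limma adjusted p = 0.0109) and Peg10 one of 0.68 (limma adjusted p = 0.00231). Both thus stood above the median of their chromosome, although neither was called against WT. Copg2 remained lower by this measure (-0.71, limma adjusted p = 0.00106). Sgce had -0.65 and missed the threshold (limma adjusted p = 0.0506). The median was taken off as a fixed amount. The p-values against it therefore measure spread between samples, and not the spread of the chromosome's genes around their median. Some other genes of chromosome 6 stood higher than Mest and Peg10 in E3-KO, such as Chd4 (0.737 against WT) and Foxi3 (1.631). The part of the chromosome in the changes of these genes was not tested beyond this.

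**Figure D3:**
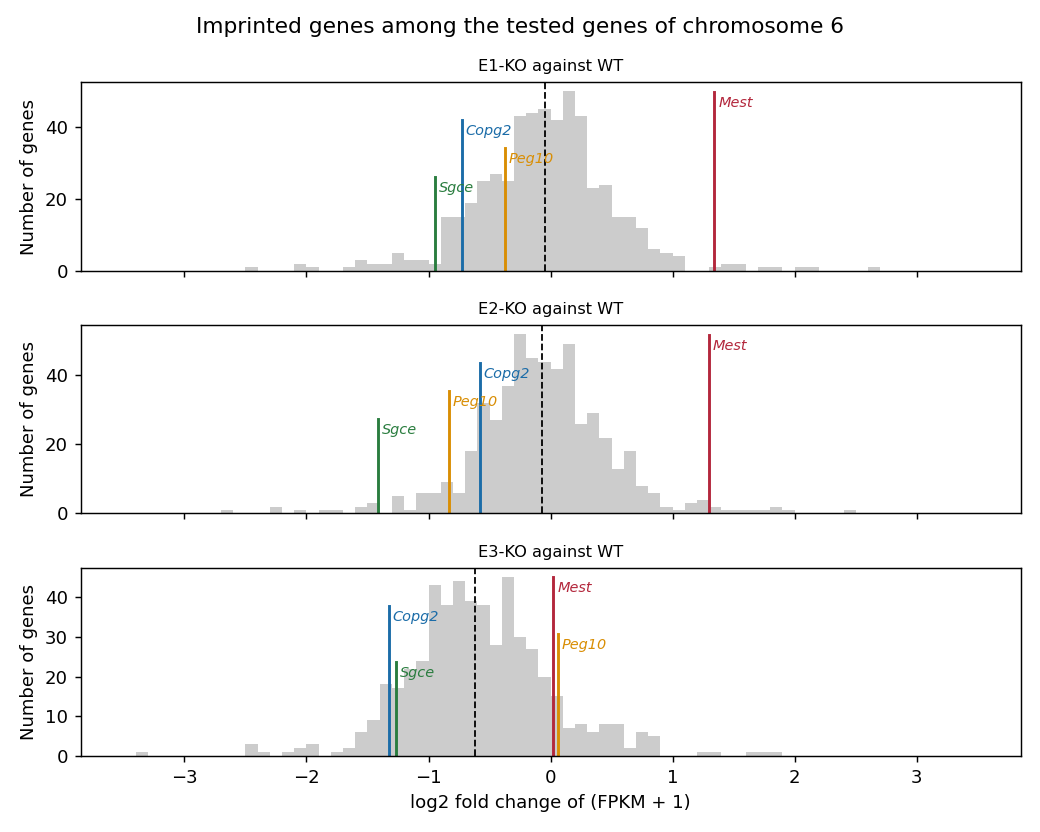
Distribution of log2 fold changes of (FPKM + 1) against WT over the other 532 tested genes of chromosome 6 (grey bars, number of genes), with their median as a dashed line and 4 imprinted genes as coloured lines, for E1-KO, E2-KO and E3-KO. The median moves to -0.62 in E3-KO, where Mest (0.02) and Peg10 (0.06) lie to the right of it and Copg2 (-1.32) and Sgce (-1.26) to the left.

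Ratios of neighbouring genes from the same sample show these shifts without reference to the rest of the library. The FPKM of Mest divided by that of Copg2 was 0.713 and 0.682 in WT, 3.28 and 2.79 in E1-KO, 3.02 and 2.29 in E2-KO, with 1.57 and 2.14 in E3-KO. All 6 knockout samples were above both WT samples, and E3-KO lay between WT and the other knockouts. For Peg10 and Sgce the ratio was 3.81 and 3.79 in WT, 6.77 and 5.57 in E1-KO, 8.31 and 5.33 in E2-KO, with 9.14 and 13.4 in E3-KO. Here E3-KO was the highest. Peg3 over Usp29, in the cluster of chromosome 7, gave 3.33 and 5.37 in WT and 4.91 to 9.45 in the knockouts, and these ranges overlapped. The ratios were not tested.

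**Figure D4:**
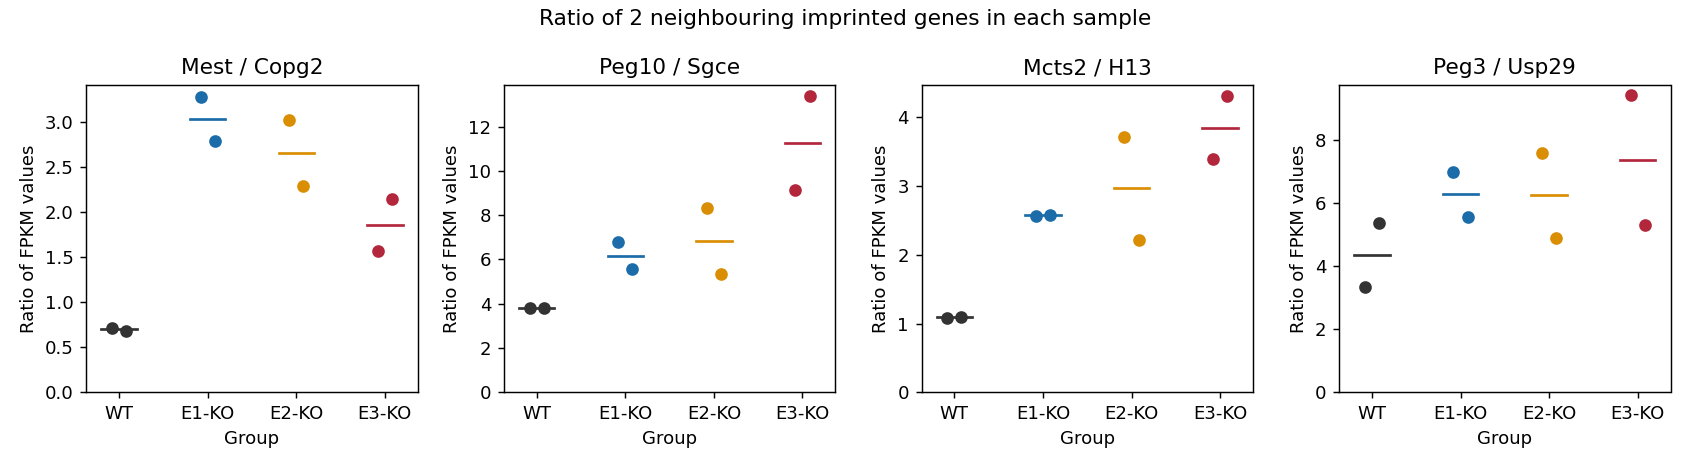
FPKM of Mest over Copg2, Peg10 over Sgce, Mcts2 over H13 and Peg3 over Usp29 in each sample (points) with the group mean (line). WT points of the first 3 ratios lie below all knockout points (0.713 and 0.682, 3.81 and 3.79, 1.08 and 1.1), and those of Peg3 over Usp29 (3.33 and 5.37) overlap with the knockouts.

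Mcts2 (ENSMUSG00000042814) is a retrogene read from the paternal copy within an intron of H13, the gene for signal peptide peptidase. Its level was 17.0 and 18.3 FPKM in WT, 40.0 and 39.1 in E1-KO, 52.8 and 26.9 in E2-KO, with 39.0 and 38.3 in E3-KO. All knockout samples lay above both WT samples, with the E2-KO samples far apart. The rises were 1.12, 1.05 and 1.09 (standard error 0.241 each, limma adjusted p = 0.00712, 0.00974 and 0.00644). Without WT replicate 1 the rise in E2-KO did not pass (1.00, limma adjusted p = 0.0579). H13 itself was at 15.7 and 16.7 FPKM in WT and 15.6 and 15.1 in E1-KO, 14.2 and 12.1 in E2-KO, with 11.5 and 8.89 in E3-KO. It fell in E3-KO by 0.63 (limma adjusted p = 0.00598) and was not called in E1-KO (-0.07) or E2-KO (-0.29). The ratio of Mcts2 to H13 went from 1.08 and 1.1 in WT to values between 2.21 and 4.31 in the knockouts. Values of Mcts2 are uncertain where its reads can be shared with its parent gene Mcts1. Zrsr1, another intronic retrogene, which codes for a relative of a splicing factor, rose in E3-KO from 7.79 and 8.22 FPKM to 11.4 and 11.7. Its change of 0.48 (limma adjusted p = 0.0265) did not pass without the filter (limma adjusted p = 0.0522), without E3-KO replicate 1 or 2 (0.0648 and 0.0872) or without WT replicate 1 or 2 (0.121 and 0.0882). Zrsr1 was not called in E1-KO or E2-KO (0.32 and 0.39, limma adjusted p = 0.117 and 0.0654).

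Igf2r (ENSMUSG00000023830), Slc38a4 (ENSMUSG00000022464) and Trappc9 (ENSMUSG00000047921) fell in each knockout. Igf2r codes for the receptor that carries insulin-like growth factor 2 to the lysosome. Its level was 35.3 and 39.4 FPKM in WT, 12.8 and 15.2 in E1-KO, 14.9 and 14.9 in E2-KO, with 16.3 and 18.96 in E3-KO. The highest knockout sample was thus below the lower WT sample. Igf2r changed by -1.36, -1.27 and -1.05 (standard error 0.124 each, limma adjusted p = 0.000181, 0.000267 and 0.000334). Slc38a4 went from 128.6 and 134.1 FPKM in WT to 69.1 and 74.3 in E1-KO, 62.9 and 65.1 in E2-KO, with 87.4 and 69.8 in E3-KO, again with no overlap. Its changes were -0.86, -1.03 and -0.74 (limma adjusted p = 0.000869, 0.000475 and 0.00132). Trappc9, a gene for a part of a vesicle tethering complex that is imprinted in brain, went from 11.1 and 11.9 FPKM to 3.69 and 4.15 in E1-KO, 6.56 and 4.70 in E2-KO, with 3.57 and 3.39 in E3-KO. It changed by -1.35, -0.93 and -1.49 (standard error 0.155 each, limma adjusted p = 0.000442, 0.0025 and 0.000189).

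Impact, Plagl1 and Gnas were also lower than WT, with Gnas not called in E2-KO. Impact, which restrains the stress kinase GCN2, was at 46.7 and 49.9 FPKM in WT, 24.4 and 25.8 in E1-KO, 37.1 and 37.5 in E2-KO, with 35.2 and 29.0 in E3-KO. E1-KO was the lowest group and no knockout sample reached WT. The changes of Impact were -0.91 (limma adjusted p = 0.000567), -0.36 (limma adjusted p = 0.0331) and -0.58 (limma adjusted p = 0.00338). Plagl1, a zinc finger transcription factor of a network of imprinted growth genes, went from 61.6 and 61.7 FPKM in WT to 46.0 and 44.4 in E1-KO, 38.1 and 44.8 in E2-KO, with 47.1 and 51.0 in E3-KO. Its changes were -0.44, -0.57 and -0.33 (limma adjusted p = 0.0106, 0.00384 and 0.0317). Gnas, which codes for the stimulatory G protein alpha subunit among other products, had 21.6 and 20.4 FPKM in WT, 12.7 and 13.9 in E1-KO, 15.5 and 18.3 in E2-KO, with 15.0 and 11.2 in E3-KO. It fell in E1-KO (-0.62, limma adjusted p = 0.0105) and E3-KO (-0.65, limma adjusted p = 0.00692), and in E2-KO the value was -0.30 (limma adjusted p = 0.142). The identifier of Gnas stood on 3 rows, and with all rows summed neither call passed (-0.31 and -0.32, limma adjusted p = 0.116 and 0.0895). Several of these calls rested on single samples or on the scaling. The E2-KO call of Impact did not pass without 1 of the E2-KO or WT samples (limma adjusted p from 0.0726 to 0.184) or of the E1-KO samples (0.0567 each), with median-ratio scaling (0.0605) or without the trend (0.0506). The E1-KO call of Plagl1 did not pass without 1 of the E1-KO or WT samples (limma adjusted p from 0.0567 to 0.0696). In E3-KO that of Plagl1 failed with median-ratio scaling (-0.16, limma adjusted p = 0.283), quantile normalization (-0.28, 0.0738), scaling without the 50 highest genes (-0.27, 0.108) and no trend (0.0513), and without E3-KO replicate 1 (0.112), E1-KO replicate 1 or 2 (0.0567 and 0.0564) or WT replicate 1 or 2 (0.123 and 0.132). Without E1-KO replicate 1 or WT replicate 1 or 2 the E1-KO call of Gnas gave 0.0766, 0.0679 and 0.0509 (limma adjusted p).

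Nnat (ENSMUSG00000067786) rose in E1-KO and E2-KO but had no call in E3-KO. It codes for a small membrane proteolipid best known from developing brain and lies within an intron of Blcap, on the opposite strand. WT had 4.06 and 4.53 FPKM, E1-KO 14.3 and 11.7, E2-KO 10.01 and 7.48 and E3-KO 2.32 and 3.33. Both E1-KO and both E2-KO samples were above WT, and both E3-KO samples were below it. The rises were 1.40 in E1-KO (standard error 0.183, limma adjusted p = 0.000764) and 0.87 in E2-KO (limma adjusted p = 0.00695), and the E3-KO value of -0.48 missed the threshold (limma adjusted p = 0.0587). The rise in E2-KO was 0.80 without WT replicate 1 (limma adjusted p = 0.0502). The neural marker sum was above WT in all 3 knockouts, and its part in the values of Nnat was not tested.

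In the Dlk1-Meg3 cluster of chromosome 12, the analysed member is Dlk1 (ENSMUSG00000040856), which codes for a membrane protein related to Notch ligands and is read from the paternal copy. Dlk1 was low in WT (1.09 and 0.882 FPKM) and higher in every knockout sample, at 3.79 and 2.67 in E1-KO, 4.06 and 7.24 in E2-KO, with 4.66 and 3.49 in E3-KO. Since Dlk1 passed the filter only through the knockouts, its changes are given from the limma fit with no filter on low values, which were 1.08, 1.70 and 1.34 (adjusted p = 0.0314, 0.00806 and 0.0123). In the filtered fit the E1-KO change did not pass without E1-KO replicate 1 (limma adjusted p = 0.0705) or WT replicate 2 (0.0607). Another pair of genes from the same cluster was taken from the list of further imprinted genes. Rtl1, a gene derived from a retrotransposon, had 5.06 and 5.24 FPKM in WT, 9.34 and 11.1 in E1-KO, 10.5 and 8.77 in E2-KO, with 3.6 and 3.76 in E3-KO. Dio3, which codes for an enzyme that inactivates thyroid hormone, had 2.01 and 1.56 FPKM in WT, 2.82 and 2.2 in E1-KO, 2.7 and 4 in E2-KO, with 5.47 and 6.47 in E3-KO. Rtl1 was thus highest in E1-KO and E2-KO and Dio3 highest in E3-KO. Rtl1 rose in both E1-KO and E2-KO (0.87 and 0.78, limma adjusted p = 0.00174 and 0.00306). Its E3-KO value of -0.39 (limma adjusted p = 0.0427) did not pass with quantile normalization (-0.20, limma adjusted p = 0.268), the replicate block (0.0589), or any 1 of the E1-KO, E3-KO or WT samples left out (0.0528 to 0.169). Dio3 lay above both WT samples in all 6 knockout samples, as Dlk1 did, and rose in E3-KO (1.32, limma adjusted p = 0.000825). In E2-KO its change was 0.63 (limma adjusted p = 0.0288), which did not pass with no filter (0.0701) or without E2-KO replicate 2 (0.15), WT replicate 1 (0.0612) or WT replicate 2 (0.171), and in E1-KO it was 0.33 (limma adjusted p = 0.192).

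The Kcnq1ot1 cluster and Igf2 lie on the distal part of chromosome 7, and most of their analysed genes were low. Phlda2, whose product restrains growth of the placenta, had 1.01 and 1.16 FPKM in WT, 4.11 and 3.23 in E1-KO, 1.29 and 1.58 in E2-KO, with 3.17 and 2.78 in E3-KO. It rose in E1-KO (1.16, standard error 0.158, limma adjusted p = 0.000917) and in E3-KO (0.93, limma adjusted p = 0.00188), and the E2-KO value of 0.22 was not called (limma adjusted p = 0.301). Ascl2, a basic helix-loop-helix factor of the trophoblast, went from 0.504 and 0.663 FPKM in WT to 3.602 and 1.92 in E3-KO (change 1.21, limma adjusted p = 0.0228 in the fit with no filter, which is given because Ascl2 passed the filter only through the knockouts). In the other knockouts its values were 1.47 and 1.28 (E1-KO) and 0.836 and 2.05 (E2-KO), all above WT but not called. Cdkn1c, which codes for the cell cycle inhibitor p57, lay between 0.355 and 0.521 FPKM in WT, E1-KO and E2-KO and at 2.15 and 1.67 in E3-KO. Igf2, the growth factor gene of the H19-Igf2 cluster, was at 0.448 and 0.36 FPKM in WT, 0.13 and 0.132 in E1-KO, 0.116 and 1.35 in E2-KO, with 3.16 and 1.63 in E3-KO. Cdkn1c and Igf2 were below the filter and were not tested, but both E3-KO samples exceeded both WT samples for each. In E3-KO the primitive endoderm marker sum was also highest (2.48 to 4.78 FPKM, of which Gata6 had 3.72 and 1.76 FPKM). The trophoblast markers Hand1 and Gcm1 were above WT there as well. The part of such cells in these values was not tested. Slc22a18, an organic cation transporter gene, was at most 0.196 FPKM and listed at 0 in both E1-KO samples. Tssc4, a gene of this cluster with a role in spliceosome assembly, stood much higher, with 21.98 and 22.6 FPKM in WT, 19.2 and 20.7 in E1-KO, 23.1 and 22.7 in E2-KO, with 18.6 and 17.7 in E3-KO. Its call in E3-KO (-0.29, limma adjusted p = 0.0394) did not pass with median-ratio scaling (-0.12, limma adjusted p = 0.322), quantile normalization (-0.10, 0.397) or the replicate block (0.0557), with scaling without the 50 highest genes (0.0915) or without the trend (0.0527), nor without any 1 of the E1-KO, E3-KO or WT samples (0.0524 to 0.181).

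In the Peg3 cluster of proximal chromosome 7 no gene was called against WT. Peg3, a zinc finger gene of growth and maternal behaviour, had 8.96 and 9.03 FPKM in WT and between 7.64 and 10.1 in the knockouts. Its changes of -0.04, -0.05 and -0.03 had a standard error of 0.136 each (limma adjusted p = 0.833, 0.78 and 0.864). Usp29, which starts beside Peg3 on the opposite strand and codes for a deubiquitinase, was at 2.69 and 1.68 FPKM in WT and between 1.06 and 1.75 in the knockouts, and was not called. Zim1, a maternally read zinc finger gene, was at most 0.403 FPKM and was not tested.

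Genes of the Snrpn cluster of central chromosome 7, the region of the Prader-Willi and Angelman syndromes in humans, were low apart from Ube3a. Ube3a, a ubiquitin ligase gene with imprinting limited to neurons, had 22.2 and 22.01 FPKM in WT and between 18.98 and 24.2 in the knockouts, with no call. Ndn, a MAGE family gene, had 2.09 and 2.16 FPKM in WT, 1.37 and 1.03 in E1-KO, 1.98 and 2.03 in E2-KO, with 1.77 and 1.505 in E3-KO. Its change in E1-KO (-0.51, limma adjusted p = 0.0263) did not pass without any 1 of the E1-KO or WT samples (limma adjusted p from 0.0508 to 0.149). Peg12, a relative of GSK3-binding proteins, was below the filter, at 0.239 and 0.413 FPKM in WT, 0.542 and 0.43 in E1-KO, 1.07 and 0.967 in E2-KO, with 1.25 and 1.21 in E3-KO. All 6 knockout samples of Peg12 were above both WT samples. Mkrn3, a gene for a makorin ubiquitin ligase, stayed between 0.774 and 1.26 FPKM in all samples with no call. Magel2, another MAGE family gene, was at most 0.0731 FPKM and listed at 0 in both E1-KO samples.

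Grb10, Inpp5f and Zdbf2 were expressed and not called in any knockout. Grb10, an adaptor that damps signalling of the insulin receptor, had 12.9 and 14.1 FPKM in WT and between 12.7 and 15.3 in the knockouts. The identifier of Grb10 also stood on lower rows that entered no comparison. In each of these, every knockout sample was below both WT samples, for example at most 2.5 against 3.77 and 3.18 FPKM. With all rows summed Grb10 was not called in any knockout. Inpp5f, a phosphoinositide phosphatase gene, had 9.99 and 9.26 FPKM in WT and between 7.15 and 9.45 in the knockouts, with values of -0.28 in E2-KO and -0.32 in E3-KO (limma adjusted p = 0.0975 and 0.0535). Zdbf2, a zinc finger gene of postnatal growth, had 16.8 and 16.6 FPKM in WT and between 12.03 and 19.3 in the knockouts.

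Sorted by the copy that is known to be read, both classes held genes that were higher and genes that were lower in E1-KO and E3-KO. Of the 16 tested genes known as paternally read, 4 were higher and 6 lower in E1-KO, 4 and 5 in E2-KO, then 3 and 4 in E3-KO. Of the 8 known as maternally read, 1 was higher and 3 lower in E1-KO, 0 and 3 in E2-KO, then 2 and 5 in E3-KO. These 8 include Copg2, Trappc9 and Ube3a, whose imprinting is known from some tissues, from brain and from neurons. Whether these genes are read mainly from the maternal copy in stem cells was not analysed, so the class is one of name. The higher counts include Dlk1 among the paternally read genes in each knockout and Ascl2 among the maternally read genes in E3-KO. Both passed the filter only through the knockouts, and they also enter the medians below. The shares of higher and lower calls over all tested genes were 15.0% and 23.0% in E1-KO, 14.2% and 22.0% in E2-KO, then 13.9% and 30.8% in E3-KO, and no class was tested against them. The medians of the maternally read genes were -0.11, -0.18 and -0.46, and those of the paternally read genes -0.09, -0.12 and -0.25. Across the 26 tested genes, 10 had all 6 knockout samples below both WT samples (28.5% of all tested genes did), and 5 had all 6 above (15.3% of all tested genes). These 5 include Dlk1 and Ascl2, and 3 of the 24 other genes had all 6 above.

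Differences between the knockouts were also tested directly. Between E2-KO and E1-KO 1 of the 26 genes was called, with 0.834% of all tested genes called (0.488% higher and 0.346% lower). This was Phlda2, lower in E2-KO by 0.94 on the log2 scale (-0.94, limma adjusted p = 0.0413), a call that did not pass with the replicate block (0.0685), without filter (0.114) or without any 1 of the E1-KO, E2-KO or WT samples (0.0704 to 0.261). Between E3-KO and E1-KO 5 were called (1 higher, 4 lower), against 25.8% of all tested genes (9.42% higher and 16.4% lower), and 3 were called without E1-KO replicate 1 or 2. Mest, Copg2, H13 and Nnat were lower in E3-KO (-1.32, -0.60, -0.56 and -1.88) and Peg10 was higher (0.44, limma adjusted p = 0.0256). Between E3-KO and E2-KO 6 were called (2 higher, 4 lower), against 15.6% (5.48% higher and 10.1% lower). Mest, Copg2, Nnat and Trappc9 were lower in E3-KO (-1.27, -0.75, -1.35 and -0.55), and Peg10 and Phlda2 were higher (0.89 and 0.71). Set against the chromosome 6 median in E3-KO, the difference of Copg2 was 0.02 to E1-KO and -0.13 to E2-KO, and neither passed (limma adjusted p = 0.913 and 0.433). Mest kept a difference of -0.70 to E1-KO and -0.66 to E2-KO (limma adjusted p = 0.0135 and 0.0309). The call of Trappc9 did not pass with any of the 3 other scalings (limma adjusted p from 0.0622 to 0.0692) or the replicate block (0.0609), or without any 1 of the samples of the 4 groups except E2-KO replicate 2 (0.0674 to 0.19). The call of Phlda2 did not pass without E2-KO replicate 1 (0.0835) or E3-KO replicate 1 (0.0661). Those of H13 and Peg10 against E1-KO did not pass without E1-KO replicate 1 (limma adjusted p = 0.101 and 0.142) or 2 (0.0774 and 0.0919). H13 also failed without E3-KO replicate 2 (0.0741), and Peg10 without E3-KO replicate 1 (0.109) or either WT sample (0.0504 each).

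Lists of related genes were counted in the same way. Like the list of imprinted genes, they were chosen with earlier results of these data known. Their shares beside those of all tested genes are therefore a description and no test. Each list also holds genes of chromosome 6, which was lower as a whole in E3-KO. Of 18 tested genes from a list of further genes reported as imprinted in some tissue, 9 were called in E1-KO (4 higher, 5 lower), 7 in E2-KO (3 and 4), then 9 in E3-KO (3 and 6). Over all tested genes the shares called were 38.0%, 36.1% and 44.7%. Apart from Rtl1 and Dio3, the smallest p over the 4 groups belonged to Dhcr7, an enzyme gene of cholesterol synthesis, with means of 20.1 FPKM in WT, 37.1 in E1-KO, 24.5 in E2-KO, then 14.0 in E3-KO, and to Sfmbt2, a Polycomb family gene, with 7.26, 5.71, 4.05 and 11.5 FPKM. Of 28 tested genes that neighbour the clusters and are not known as imprinted, 14 were called in E1-KO (4 higher, 10 lower), 13 in E2-KO (3 and 10), then 16 in E3-KO (3 and 13). The background is the same as for the list before. Their medians were -0.26, -0.27 and -0.36. The smallest p over the 4 groups among them belonged to the zinc finger gene Zfp28 beside Peg3, with means of 9.09 FPKM in WT and 3.07, 4.17 and 8.35 in the knockouts, and to Zc3hc1 on chromosome 6, with 46.9 FPKM in WT and 36.3, 38.4 and 22.4. In E3-KO the change of Zc3hc1 was -1.03, and it was -0.42 against the median of the chromosome (limma adjusted p = 0.00549). Mrpl23, a mitochondrial ribosomal protein gene near H19, had 49.4 FPKM in WT and 27.9, 32.9 and 30.1 in the knockouts, and Acat2, an acetyltransferase gene of lipid metabolism, 20.7 FPKM in WT and 32.9, 30.3 and 19.5.

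Regulators of imprints were the last list, with 27 of 27 genes tested. The counts of higher and lower genes were 12 and 1 with E1-KO, 11 and 2 with E2-KO, then 8 and 5 with E3-KO. In all 3 comparisons 48.1% of the list was called, beside 38.0%, 36.1% and 44.7% of all tested genes, with 15.0%, 14.2% and 13.9% of all tested genes higher. Zfp57 was not called in any knockout, with means of 152.4 FPKM in WT and 185.2, 167.9 and 167.9 in the knockouts. Its partner Trim28 rose from 630.7 FPKM to 910.7, 900.2 and 883.8 (changes 0.53, 0.51 and 0.48, limma adjusted p = 0.0115, 0.014 and 0.0144), but without WT replicate 1 or 2 no knockout passed (limma adjusted p from 0.07 to 0.0991). Nor did Trim28 pass in E1-KO without E1-KO replicate 1 or 2 (0.0814 and 0.0679), in E3-KO without E3-KO replicate 2 (0.0516) or in E2-KO with quantile normalization (0.0643). Uhrf1, which recruits the maintenance methyltransferase to newly copied DNA, was not called (means of 204.3 FPKM in WT and 248.6, 240.5 and 205.5). Dnmt1, that methyltransferase, was called in E3-KO alone (-0.37, limma adjusted p = 0.0166), with means of 101.5 FPKM in WT and 90.6, 88.3 and 78.4, and it did not pass there with median-ratio scaling (-0.20, limma adjusted p = 0.156) or without E3-KO replicate 1 (0.0709) or WT replicate 1 or 2 (0.0619 and 0.113). Dnmt3l, a cofactor of the de novo methyltransferases, rose from 8.53 FPKM in WT to 50.2, 53.4 and 44.3 (changes 2.42, 2.46 and 2.24, limma adjusted p = 0.00017, 0.000167 and 0.000142). Dnmt3b, one of those methyltransferases, rose from 16.3 FPKM to 35.6, 40.9 and 48.4 (changes 1.08, 1.27 and 1.51, limma adjusted p = 0.000272, 0.000164 and 6.02e-05). Naa10, a gene for an N-terminal acetyltransferase, rose from 44.5 FPKM to 79.2, 77.5 and 67.3 (changes 0.82, 0.79 and 0.59). Dppa3, which protects imprints in the early embryo, fell from 16.5 FPKM to 2.25, 1.72 and 8.07, and in E3-KO it lies on the lowered chromosome 6 (-0.96, and -0.34 with limma adjusted p = 0.202 against the chromosome's median). No DNA methylation was measured here, so its level at the control regions was not analysed.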

How the data were processed

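RNA from 8 samples of 4 groups was measured by total RNA sequencing. The authors deposited 1 table per sample with FPKM values, and per the submitters' processing notes Trimmomatic 0.36, TopHat2 2.0.12, Cufflinks 2.2.1 and the build mm9 were used; the strand setting is not given in the sources used here. Each table had 18774 rows with 17812 identifiers. Of 660 repeated identifiers, 576 were kept through the row that lay in place among its genomic neighbours, which left 17728 genes, 17262 of them with a symbol from the annotation.

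All 8 samples entered 1 fit of log2(FPKM + 1) on group with limma 3.58.1 (R 4.3.3, trend, two-sided tests, Benjamini-Hochberg adjustment, 4 residual degrees of freedom) over the 11269 genes that averaged 1 FPKM or more. The fit was tested on simulated data. FPKM values cannot be turned back into whole reads here, so depth is relative and no counting error is given. Per-sample FPKM sums ranged from 454974 to 532007. Correlations across genes were 0.985 to 0.994 within groups and 0.941 to 0.982 between groups.

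The members and gene lists were chosen with earlier results of these data known. All listed imprinted genes are described, and from each further list the 4 genes with the smallest p over the 4 groups were named, beside Zfp57, Trim28, Dnmt1, Uhrf1 and Dppa3. Alternatives covered the replicate block, the samples fitted, scaling, trend, filter, pseudocount, repeated rows, thresholds, the chromosome 6 median and leaving out each sample. Promoter windows come from RefSeq on GRCm38.p6, and no coordinates on mm9 are given.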

Additional observations from a re-analysis of the deposited data

Results flagged for a closer look

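For 7 imprinted genes a direct limma test between knockouts gave an adjusted p under 0.05. On the log2(FPKM + 1) scale, E3-KO minus E1-KO was -1.32 for Mest, -0.60 for Copg2, 0.44 for Peg10, -0.56 for H13 and -1.88 for Nnat. E3-KO minus E2-KO was -1.27 for Mest, -0.75 for Copg2, 0.89 for Peg10, 0.71 for Phlda2, -1.35 for Nnat and -0.55 for Trappc9. E2-KO minus E1-KO was -0.94 for Phlda2. As given above, the differences of Copg2 did not pass against the chromosome 6 median in E3-KO. Those of Phlda2, Trappc9, H13 and of Peg10 against E1-KO did not pass under several alternatives. Another row with the identifier of Gnas, which entered no comparison, had a lowest knockout value of 7.71 FPKM, and its WT values were 7.38 and 4.84 FPKM.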

How the results depend on the processing

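Of the 54 called changes of imprinted genes, 53 kept their direction under every alternative, and 33 passed the threshold under every alternative apart from stricter thresholds. The exception was Copg2 between E3-KO and E1-KO, which went from -0.60 to 0.02 with the chromosome 6 median removed in E3-KO. With an absolute change of at least 1 also required, the counts for E1-KO, E2-KO and E3-KO against WT were 7, 6 and 7, and E3-KO gave 2 against each of the other knockouts. The counts against WT include Dlk1 in each knockout and Ascl2 in E3-KO, which passed the filter only through the knockouts. Between E3-KO and E1-KO the count was 3 of 26 at an adjusted p under 0.01 and 8 of 32 without the filter. Between E2-KO and E1-KO limma called 1 gene, 2 with median-ratio scaling, and 0 with the replicate block, with only these 4 samples fitted, with no filter, a mean of at least 5 FPKM or either stricter threshold. At an unadjusted p under 0.05 the counts there were 7 of 26 in the main fit, 7 of 26 with the block and 8 of 26 with only these 4 samples. They were 9 of 32 without the filter and 4 of 20 at a mean of at least 5 FPKM. Shares of all tested genes under these alternatives, at an unadjusted p under 0.05 in any fit, and with samples left out, were not counted. These counts of imprinted genes therefore have no background to be read against. No count model was run, since the tables hold no counts.

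Leaving out 1 sample at a time gave 9 to 15 (E1-KO), 9 to 12 (E2-KO) and 12 to 16 (E3-KO) calls against WT. Between knockouts it gave 0 to 3 (E2-KO and E1-KO), 3 to 6 (E3-KO and E1-KO) and 5 to 8 (E3-KO and E2-KO), and over the 4 groups 11 to 17. Where 1 sample remained in a group, it was assumed to vary like the other groups. With the replicate block the counts against WT were 15, 12 and 14, between knockouts 0, 5 and 5, and over the 4 groups 16. Samples that share a replicate number did not deviate together across all tested genes (mean correlation 0.005, from -0.042 to 0.089 over 6 pairs of groups). This check cannot exclude a batch that crosses the replicate numbers or acts on few genes. The cause of these shifts was not tested. Genes near 1 FPKM, such as Dlk1, Phlda2 and Ascl2, rest on few fragments of unknown number.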
